A study of Mus musculus with 16 samples.

Results

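The genes that encode the proteins of the cytosolic ribosome were followed in facial tissue of mouse embryos. Members were the rows of the deposited table with a symbol made of Rpl or Rps, a number and at most a final a or x, together with Rplp0, Rplp1, Rplp2 and Rpsa. This rule took 76 of 30286 gene symbols, 30 of the small and 46 of the large ribosomal subunit. Rps3a1, Fau and Rack1 encode ribosomal proteins under names that the rule does not match, and they are described beside the members.

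The samples were facial prominences of C57BL/6 embryos at embryonic day 12, in which surface ectoderm and underlying mesenchyme had been parted by surgery. Each layer was taken from wild-type (WT) and from Esrp1-/- embryos (KO), which gives 4 groups. Esrp1 is an epithelial splicing factor, and the labels name no Cre or other transgene. Per the labels each group had 4 libraries, made from pools of 6 to 7 embryos, 16 libraries in all, and 5 of these carry 2 barcodes (ectoderm 1 WT and 2 KO, mesenchyme 0 WT and 2 KO).

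The deposited table holds 1 value per group in TPM, an RNA-seq unit scaled by transcript length and by the total of the library. The columns sum to 917993 and 955495 TPM for WT and KO ectoderm and to 969156 and 977371 for WT and KO mesenchyme. No difference below therefore has a replicate check, no test is possible, and "higher" and "lower" describe these values. Esrp1 itself was at 170.02 and 62.88 TPM in WT and KO ectoderm and at 1.01 and 1.0 in WT and KO mesenchyme. Its level was thus lower but not at 0 in KO ectoderm, and the deleted stretch is not described in the labels. The 8 ectoderm markers summed, for the WT layers, to 2440.1 TPM (ectoderm) and 15.6 TPM (mesenchyme), and the 8 mesenchyme markers to 249.5 and 2971.8.

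A ribosome carries most of its proteins in single copy, so their messenger RNAs are made in large and similar amounts in growing tissue. Many of these messenger RNAs begin with a terminal oligopyrimidine (TOP) tract, a C followed by pyrimidines, through which mTOR and LARP1 set their translation. Loss of 1 copy of several of the genes causes Diamond-Blackfan anaemia, in which facial clefts also occur. The genes are short and highly expressed, and mammalian genomes hold many processed pseudogenes of them. These are intronless copies of the messenger RNA put back into the genome, and a short read from an identical stretch cannot be assigned to 1 source by its sequence.

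The copies are shown first because the levels of several members turn on them. Each line gives bases 1 to 60 of the coding sequence, counted from the A of the start codon, read from GENCODE M21 on GRCm38 (mm10). No capitals are set in these 5 lines, because the member and its copy have the same letters. Rpl5 (chromosome 5, 107900502 to 107909005) is matched by the processed pseudogene Gm15500 (chromosome 7, 114705217 to 114706235) over 891 coding bases with 0 differing bases. Rps27 (chromosome 3, 90212522 to 90213651) is matched by Rps27rt (chromosome 9, 114982366 to 114982739) over 252 bases with 0 differing bases. Rps12 (chromosome 10, 23785183 to 23787275) is matched without a difference over 396 bases by Rps12-ps3 (chromosome 19, 59322290 to 59322783), which the annotation types as protein coding, and by the pseudogene Rps12l1 (chromosome 7, 56014016 to 56014414).
Rpl5: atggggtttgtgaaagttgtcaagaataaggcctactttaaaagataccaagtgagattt
Gm15500: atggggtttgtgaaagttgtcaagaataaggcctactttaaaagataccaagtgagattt
Rps27: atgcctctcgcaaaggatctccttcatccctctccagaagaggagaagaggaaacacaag
Rps27rt: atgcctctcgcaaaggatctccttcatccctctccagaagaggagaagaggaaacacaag
Rps12, Rps12-ps3 and Rps12l1: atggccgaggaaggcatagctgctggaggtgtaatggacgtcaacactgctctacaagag

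Other copies can be told from their member at a few bases. The pseudogene Gm10288 (chromosome 3, 146838811 to 146839347) differs from Rpl11 (chromosome 4, 136028265 to 136053428) at 1 of 534 coding bases, G86A, with the member's base first. Gm6472 (X chromosome, 152909505 to 152910155) differs from Rps7 (chromosome 12, 28630854 to 28635953) at 3 of 582 bases, which are T26G, G48A and G123T. Capitals mark the differing bases within bases 57 to 116 of Rpl11 and bases 8 to 67 of Rps7.
Rpl11: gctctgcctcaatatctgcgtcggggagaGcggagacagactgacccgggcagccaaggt
Gm10288: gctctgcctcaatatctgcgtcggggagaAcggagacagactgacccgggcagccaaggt
Rps7: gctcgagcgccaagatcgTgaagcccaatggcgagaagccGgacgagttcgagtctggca
Gm6472: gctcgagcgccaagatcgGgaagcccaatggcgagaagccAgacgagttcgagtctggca

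In all, 736 rows of the table were matched to the members as copies, 683 by sequence and 53 by name, and 720 of them are typed as pseudogenes. A match by sequence needed 90% identity over 80% of the member's coding sequence. Of these rows 180 were at 1 TPM or more on average over the groups, and 25 were at 100 TPM or more. The best match was identical over its length for 19 of those 25 rows. A copy at 100 TPM or more belonged to 22 members. The copies held over 50% of the summed TPM for 12 members and under 5% for 53, and 5 members had no copy row, among them Rpl8, Rplp2, Rps3 and Rps9.

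Among these 12 members, those with the largest shares in copies had the lowest own rows of all. Rps27, a small-subunit protein with a zinc finger, was listed at 0 in all 4 groups. Its copy Rps27rt was at 3775.23 and 3905.13 TPM in WT and KO ectoderm and at 3203.99 and 4104.98 in WT and KO mesenchyme. Rps27rt alone thus carried the level of the family in each group. Rpl5, which binds 5S ribosomal RNA, was at 114.83 and 107.70 TPM in WT and KO ectoderm and at 83.67 and 104.98 in WT and KO mesenchyme, while Gm15500 was at 2340.23, 2277.53, 1853.73 and 2312.89 in that order. Rpl12, a protein at the base of the ribosomal stalk, was at 86.41, 89.65, 78.93 and 77.22 TPM against 2476.36, 2658.09, 1968.04 and 2498.39 for Gm10275. In both families the copy was over an order of magnitude above the member in every group.

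Rpl27 showed the same split over 3 loci. Its own row was at 113.32, 125.32, 121.59 and 172.65 TPM in that order of groups. Rpl27-ps3 was at 1331.65, 1674.60, 1527.79 and 1717.16, and Gm11518 at 561.11, 377.82, 282.90 and 254.54. The sum over the family was 2020.64, 2195.70, 1942.32 and 2158.79 TPM, so Gm11518 ran from high in WT ectoderm to low in KO mesenchyme while the sum stayed within a narrow range. Rpl27a, of the large subunit, was at 501.69, 520.30, 380.38 and 479.16 TPM, and its identical copy Gm7536 at 2407.52, 2592.61, 2011.99 and 2416.24. Here too the copy was the larger row in every group. The other members with over 50% in copies, beside Rpl27a (83.55%), were Rpl10 (75.24%), Rps23 (71.63%), Rpl10a (65.5%), Rps12 (64.05%), Rpl37 (61.05%), Rpl31 (56.19%) and Rpl15 (55.46%). The copy of Rpl10a, Rpl10a-ps1, lacks the start codon through T2G and G3C and was still listed at 1227.15 to 1440.12 TPM.

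**Figure D1:**
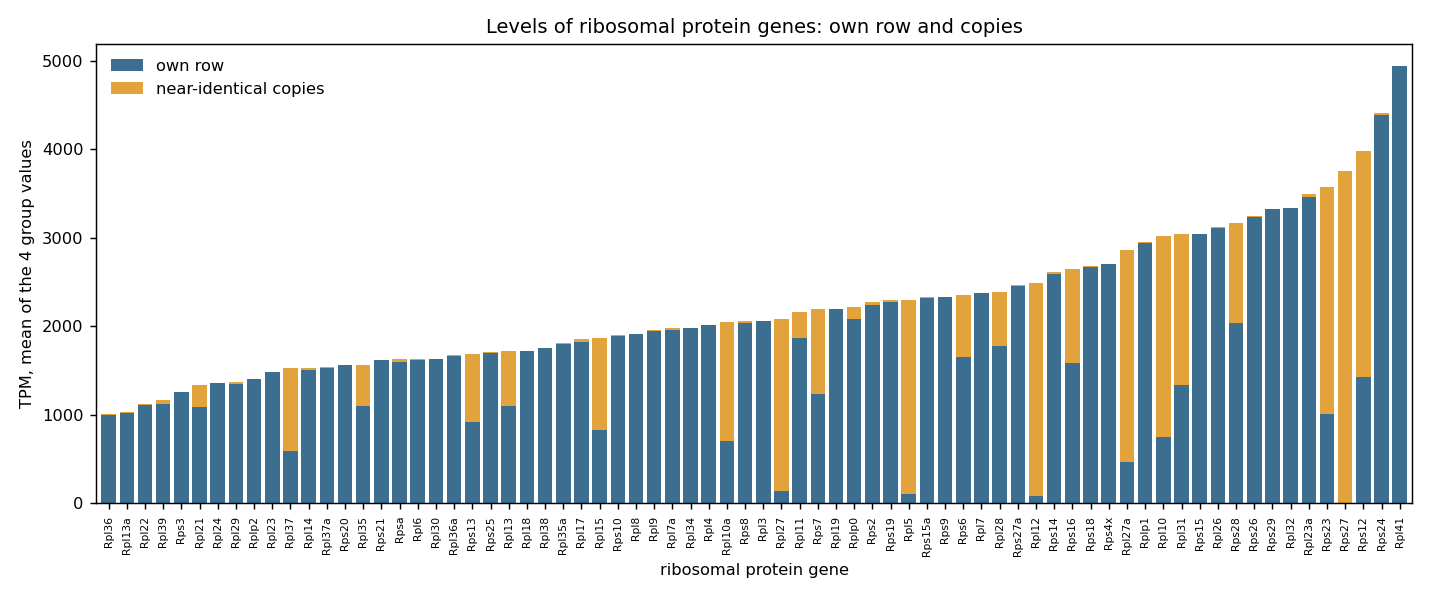
Bars give the mean of the 4 group values in TPM for the members reported here, ordered by the sum; blue is the gene's own row and orange its near-identical copies. Rps27 has no blue part, Rpl5, Rpl12 and Rpl27 have a small one, and with copies every gene drawn is above 1000 TPM.

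With the copies added, the genes were more alike in level. In own rows the mean over the groups ran from 0 to 4936 TPM, and 11 members were under 1000 TPM. With copies the range was 1004 to 4940 TPM and no member was under 1000. The ratio of the 90th to the 10th percentile of the members was 3.79 in own rows and 2.41 with copies. Rpl41, a peptide of the large subunit encoded by 75 coding bases, was the highest in both counts, at 4179.82 and 4793.47 TPM in WT and KO ectoderm and at 4697.18 and 6074.59 in WT and KO mesenchyme. Rps24, of the small subunit, followed at 4378.30, 4444.63, 3705.66 and 5009.91. The order of the others depended on the copies: Rps12 stood at rank 51 in its own row and rank 3 with copies, Rps23 at rank 65 and 5, Rps27 at rank 76 and 4, and Rpl10 at rank 69 and 14. Rpl36, of the large subunit, was the lowest with copies, at 1004 TPM.

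Own rows of the highest genes after these were Rpl23a (3088.78 and 3399.86 TPM in WT and KO ectoderm and 3253.82 and 4099.29 in WT and KO mesenchyme), Rpl32 (3333.51, 3533.00, 2872.76 and 3588.39) and Rps29 (2986.25, 3768.31, 2970.93 and 3553.43). Rps26, Rpl26, Rps15 and Rplp1 were also among the highest 10 by own row. KO mesenchyme was the top group for Rpl23a and Rpl32, and KO ectoderm for Rps29. Of the 50 rows with the highest mean TPM in the whole table, 21 were members, as were 50 of the first 100 and 70 of the first 200.

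With 1 row kept per symbol, the members by their own rows took 14.39% and 15.24% of the TPM of WT and KO ectoderm and 12.86% and 15.06% of that of WT and KO mesenchyme. With copies the shares were 18.02%, 18.8%, 15.85% and 18.6%. WT mesenchyme was the lowest group on both counts, and the KO groups were the highest. Rows compete for a fixed total in TPM, so a share also depends on the other genes. Mitochondrially encoded genes took 8.0%, 7.42%, 7.20% and 9.61% of the columns in the same order. Leaving them out raises each share, and the KO mesenchyme share without them is given in the closing section. Their part in the order of the groups was not tested.

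**Figure D2:**
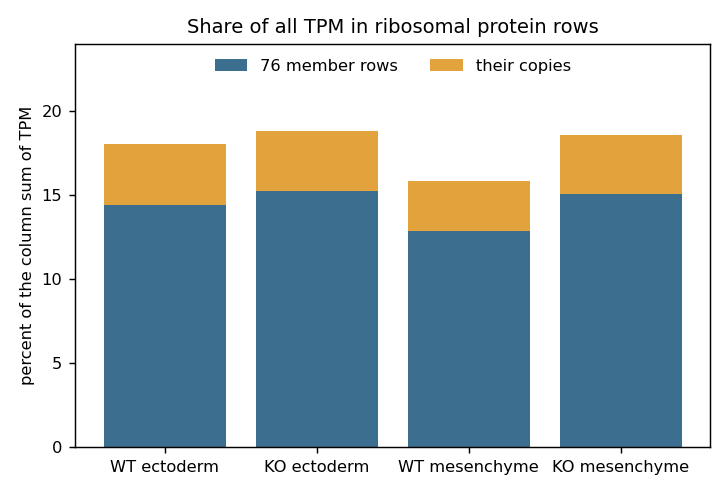
Stacked bars give the percent of each column's TPM sum, with 1 row kept per symbol, held by the 76 member rows (blue) and by their copies (orange) in the 4 groups, 1 deposited value each. The total is 15.85% in WT mesenchyme and 18.02% to 18.8% in the other groups.

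Gene by gene, with copies, WT mesenchyme was the lowest of the 4 groups for 49 of 76 members. By own rows it was for 43 of 75, against 16.4% of all genes at 1 TPM or more. KO was above WT in both layers for 62 of 76 members with copies. By own rows it was for 60 of 75, against 21.4% of all genes. These counts are from the deposited TPM and were not repeated with other scaling. For each layer alone, with the 4 columns quantile-normalized, 41 of 75 members by own row were above 0 in KO over WT ectoderm. In mesenchyme 51 of 75 were. The medians of all genes were then -0.028 in ectoderm and 0.021 in mesenchyme. With copies, the spread over groups was small: the highest group was 1.26 times the lowest for the median member. It ran from 1.07 for Rpl37a to 2.16 for Rplp2.

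In ectoderm, the members were slightly higher in KO than in WT in the deposited TPM, and no member was 1.5-fold apart. The median log2 ratio of KO over WT (TPM plus 1) was 0.12 over the 75 members whose mean reached 1 TPM, and 0.05 over all 13935 genes compared. A ratio above 0 was found for 69 of 75 members, against 64.2% of all genes. With the 4 columns quantile-normalized 41 of 75 were above 0, with medians of 0.014 over the members and -0.03 over all genes. With the columns scaled to an equal sum without mitochondrially encoded genes 49 were above 0, with medians of 0.052 and -0.01. With the length trend subtracted 48 were, with medians of 0.042 and 0.004. The 1.5-fold mark was passed by 0 members upward and 0 downward, against 4.92% and 0.452% of all genes. With copies the median was 0.10, and 70 of 76 members were above 0.

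The highest ratios in ectoderm belonged to Rps12, Rpl36, Rplp1, Rplp0 and Rps29. Rpl36, which has 0.62% of its sum in copies, was at 876.91 (WT) and 1281.96 TPM (KO) in ectoderm, a log2 ratio of 0.55. Rplp1, an acidic protein of the stalk that recruits elongation factors, was at 2378.19 and 3291.35 TPM (log2 ratio 0.47). Its partner Rplp0, which anchors the stalk, was at 1659.82 and 2115.24 TPM (0.35). Rps29, a small-subunit zinc-binding protein, had a log2 ratio of 0.34. At the low end were Rpl5 (-0.09), Rps13 (-0.04), Rps20 (-0.03) and Rpl22 (-0.01), so that even the lowest members lay near 0.

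Rps12 was the highest by its own row and not with copies. That row was at 1291.64 (WT) and 1932.26 TPM (KO) in ectoderm (log2 ratio 0.58). The sum with copies was 3973.21 and 4318.19 (0.12). Rps12l1 was listed at 395.58 and 0 TPM in WT and KO ectoderm and at 30.29 and 0 in WT and KO mesenchyme, although its coding letters are those printed above for Rps12. Rps12-ps3 was at 2266.63, 2365.15, 2059.69 and 3001.59 TPM. The family sum was steadier between groups than each of the 3 rows.

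Markers of other cell types also differed between KO and WT ectoderm. All 8 mesenchyme markers were higher in KO than in WT ectoderm, 7 of them past 1.5-fold, and their sum was 541.7 against 249.5 TPM, with 2971.8 in WT mesenchyme. Of all genes, 64.2% were above 0 in this comparison and 4.92% past 1.5-fold higher. The 7 endothelial markers summed to 28.5 against 6.9 TPM, the 5 neuron markers to 59.6 against 34.9 (4 of them past 1.5-fold higher), and the 10 red blood cell markers to 5006.4 against 4748.0. The 8 ectoderm markers, of which Esrp1 is 1, summed to 1987.2 against 2440.1 TPM, and without Esrp1 to 1924.4 against 2270.1. Of these Epcam alone was higher in KO (253.18 against 211.63 TPM). No marker was at 0 in any group. The part of these RNAs in the members' ratios was not tested, and in bulk tissue fewer cells of a type and less RNA per cell cannot be told apart.

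In mesenchyme, the members were mostly higher in KO than in WT, while in the deposited TPM the middle of all genes lay lower. The median log2 ratio was 0.26 over 75 members and -0.12 over all 14233 genes compared. The ratio was above 0 for 65 members, against 36.5% of all genes. Past 1.5-fold there was 1 member higher (Rpl10) and 0 lower, against 2.33% and 13.4% of all genes. With copies the median was 0.26, 67 of 76 members were above 0 and 0 passed the mark.

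Rpl10, an X-linked large-subunit protein near the catalytic centre, was at 569.76 (WT) and 1042.81 TPM (KO) in mesenchyme (log2 ratio 0.87). Its identical copy Rpl10-ps3 was at 2349.23 and 2403.21 TPM, and the sum was 2924.86 and 3454.07 (0.24). Rpl10 was thus within 1.5-fold once the copy was added. The next highest members had under 5% in copies, apart from Rps7. Rpl36a was at 1344.64 and 1983.53 TPM (0.56), Rps15a at 1890.79 and 2782.94 (0.56), and Rpl39 at 846.03 and 1214.38 (0.52). Rps7, a small-subunit protein with 43.64% of its sum in copies, was at 1025.28 and 1496.03 TPM in its own row (0.54), and the log2 ratio of the sum was also 0.54.

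**Figure D3:**
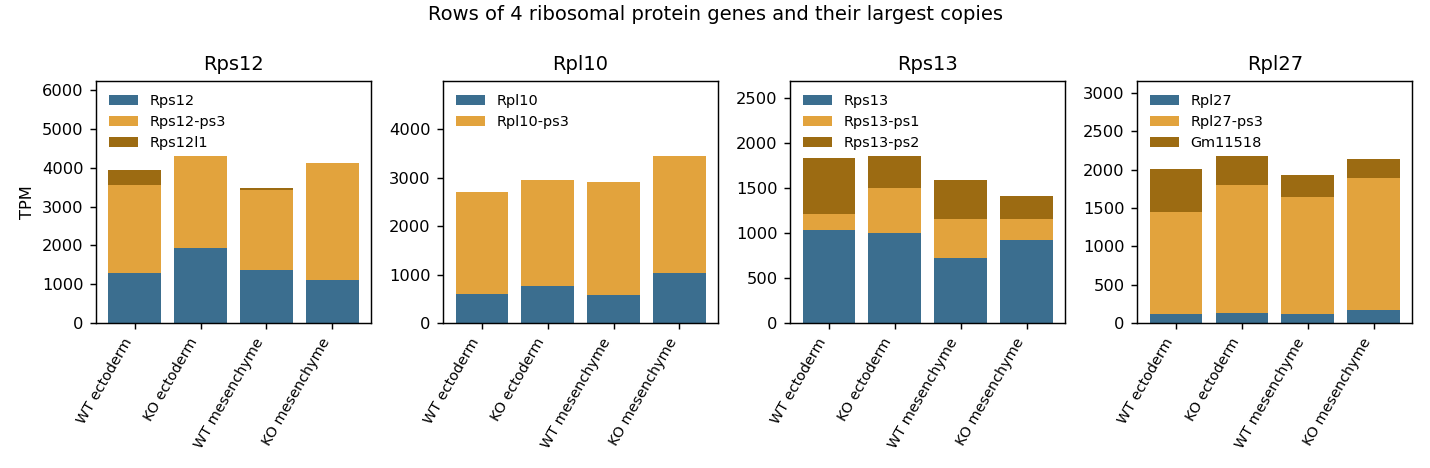
Stacked bars give TPM of 4 members (blue) and their largest copies (orange and brown) in the 4 groups. The blue row of Rps12 is highest in KO ectoderm and that of Rpl10 in KO mesenchyme, while the stacks differ less between groups.

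By own row, the lowest KO over WT log2 ratios among members in mesenchyme belonged to Rplp2, Rps12, Rpl8 and Rps9. Rplp2, the stalk protein that pairs with Rplp1, has no copy row. It was at 1561.15 and 1914.09 TPM in WT and KO ectoderm and at 1257.21 and 886.47 in WT and KO mesenchyme, a log2 ratio of -0.50 in mesenchyme and 0.29 in ectoderm. Rplp1, with which it forms a dimer, was at 2666.18 and 3440.91 TPM in WT and KO mesenchyme (0.37), and Rplp0 at 1917.78 and 2627.85 (0.45). Rpl12 was at 0.33 with copies, so that of the 4 stalk proteins Rplp2 was the one with a lower sum in KO mesenchyme.

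Rps12, Rpl8 and Rps9 did not keep their direction under every treatment of the data. Rps12 was at 1378.36 and 1117.49 TPM in WT and KO mesenchyme (-0.30), and at 3482.69 and 4136.83 with copies (0.25). Rpl8, of the large subunit, was at 1983.68 and 1714.81 TPM (-0.21), and Rps9, of the small subunit, at 2362.10 and 2056.11 (-0.20). Neither of the latter has a copy row. After the trend of the ratios with transcript GC content was subtracted, the log2 ratio was 0.30 for Rpl8 and 0.15 for Rps9. Rplp2 was at -0.11 after the same step. Rps13 turned the other way, from 0.36 in its own row to -0.18 with copies. With copies and the GC trend subtracted it was at 0.084.

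Rps13, a small-subunit protein, and its copies each had another order of groups. Rps13 was at 1036.94 and 1005.11 TPM in WT and KO ectoderm and at 720.32 and 922.27 in WT and KO mesenchyme. Rps13-ps2, with 0 differing coding bases, was at 616.63, 353.10, 433.75 and 253.40 TPM. Rps13-ps1, with T411C and A429G, was at 178.27, 499.37, 443.50 and 238.65 TPM. WT ectoderm was the highest group for Rps13 and Rps13-ps2 and the lowest for Rps13-ps1. The sum was 1837.91, 1864.16, 1603.45 and 1418.41 TPM.

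**Figure D4:**
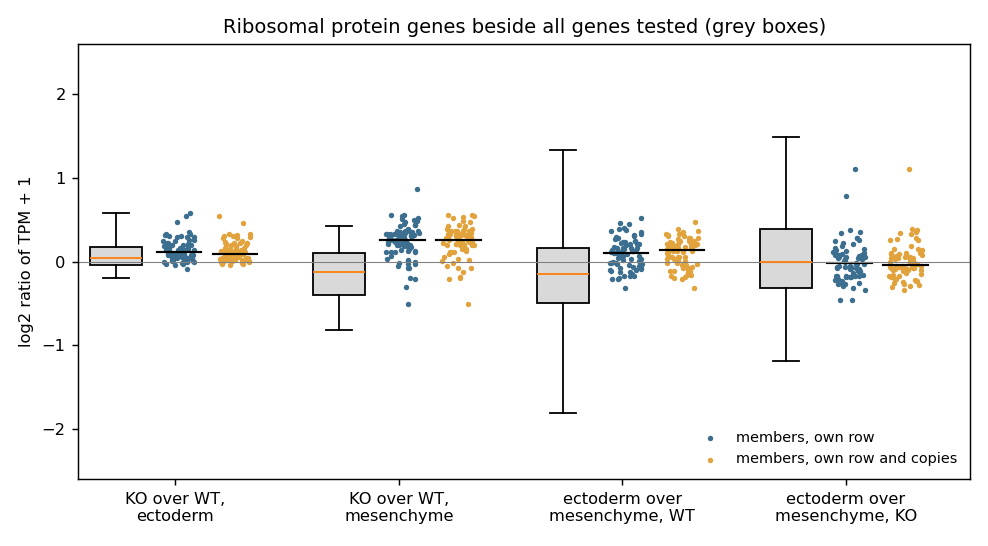
Log2 ratio of TPM plus 1 in 4 comparisons. Grey boxes show the quartiles of all genes compared with whiskers from the 5th to the 95th percentile; points are the members by own row (blue) and with copies (orange), and black lines their medians. In KO over WT mesenchyme the members' median is 0.26 while that of all genes is -0.12.

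The part of the other cell types and of transcript composition in the mesenchyme ratios was not tested, and their values were as follows. The 8 mesenchyme markers were all lower in KO mesenchyme, with sums of 2259.8 against 2971.8 TPM. Of all 14233 genes compared, 9023 were below 0. The markers ran from -1.7 (Cd248) to -0.052 (Pdgfra) and -0.008 (Vim), so that the last 2 were near equal. Neuron markers summed to 219.8 against 142.2 TPM, endothelial markers to 162.0 against 217.5 and red blood cell markers to 20586.4 against 20216.7. Over all genes the KO over WT ratio in mesenchyme declined with transcript GC content (Pearson r = -0.54 over 14118 genes). Members had a median GC content of 51.8% (range 41.3% to 60.8%), against 50.4% for all genes at 1 TPM or more. Their median transcript length was 882 bases against 2875. Both properties are of 1 annotated transcript per gene, which need not be the main one made. For Rps20, at 41.3%, it has 3706 bases for 357 coding bases, and for Rps15a 5179 for 390. With the GC trend subtracted the members' median in mesenchyme was 0.49 and that of all genes was 0.03. Past 1.5-fold, 27 members were higher and 0 lower, against 647 and 314 of all 14118 genes. With GC and then length subtracted the medians were 0.24 and 0.02. Then 7 members were past 1.5-fold higher, against 395 of all 14118 genes. With the length trend subtracted the medians were 0.27 and 0.04. With the 4 columns quantile-normalized they were 0.08 and 0.02, so that the members lay 0.06 above all genes in place of 0.38, and 51 of 75 members were above 0.

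As a description over 76 members with copies, which all share the same columns, r with GC content was 0.56 for the ratio in ectoderm and -0.25 for that in mesenchyme. The 15 members of lowest GC content (41.3% to 48.2%) had a median log2 ratio of 0.04 in ectoderm and 0.29 in mesenchyme. The 15 of highest GC content (55.5% to 60.8%), with Rpl36 at the top, had 0.19 and 0.20. Members of low GC content thus sat closer to 0 in ectoderm.

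Between the layers of WT embryos the members were somewhat higher in ectoderm. The median log2 ratio of ectoderm over mesenchyme was 0.10 over the members and -0.15 over all 14242 genes, and 50 of 75 members were above 0, against 37.2% of all genes. The 2-fold mark was passed by 0 members in either direction, against 6.88% of all genes upward and 12.1% downward. Rps13 (0.53), Rpl39 (0.46), Rpl5 (0.45), Rpl27a (0.40) and Rps25 (0.39) were highest. Rpl18 (-0.32), Rps15 (-0.21), Rplp0 (-0.21) and Rpl7a (-0.19) were lowest. With copies Rps13 was at 0.20, and the median was 0.14 with 55 of 76 above 0. With the 4 columns quantile-normalized the medians by own row were 0.128 over the members and 0.015 over all genes, and 50 of 75 members were above 0. The members thus lay 0.113 above all genes in place of 0.249.

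Rpl18, of the large subunit, was at 1386.01 and 1740.83 TPM in WT and KO ectoderm and at 1725.63 and 2031.21 in WT and KO mesenchyme, with 0.21% of its sum in copies. It was therefore higher in mesenchyme in both genotypes. Rpl39, an X-linked protein of the exit tunnel, was at 1163.77, 1264.12, 846.03 and 1214.38 TPM, and stood apart by its low value in WT mesenchyme.

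In KO embryos the members lay on both sides of 0 between the layers. The median log2 ratio of ectoderm over mesenchyme was -0.02 for members and 0.00 for all 14411 genes, with 36 of 75 members above 0, against 50.1% of all genes. Quantile normalization gave medians of 0.07 and -0.075 with 50 members above 0, and the GC trend subtracted gave -0.06 and -0.04 with 24. Past 2-fold there was 1 member higher in ectoderm, Rplp2 (log2 ratio 1.11), and 0 lower, against 9.06% and 6.88% of all genes. After the GC trend was subtracted Rplp2 was at 0.89, so that 0 members passed. Rps12 (0.79), Rpl36 (0.38), Rps9 (0.35) and Rps19 (0.34) followed, and with copies Rps12 was at 0.06. Rpl27 (-0.46), Rpl10 (-0.45), Rpl41 (-0.34), Rplp0 (-0.31) and Rpl34 (-0.29) were lowest, of which Rpl27 was at 0.02 with copies.

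The KO effect in ectoderm minus that in mesenchyme had a median of -0.11 over the members and 0.19 over all 14328 genes. It was above 0 for 26 of 75 members, against 67.5% of all genes. This gap depended on the scaling: with the 4 columns quantile-normalized the medians were -0.038 and -0.041, and 34 members were above 0. Without mitochondrially encoded genes 11 members were above 0, with the median of all genes subtracted 7, with the GC trend subtracted 4, with the length trend 16 and with both trends 13. The medians of all genes were then 0.112, 0.0, -0.015, -0.025 and -0.01 in that order. The 67.5% is for the deposited TPM and cannot be set beside these counts, and the matching shares were not counted. No member passed 2-fold in either direction, where 7.34% of all genes were up and 0.593% down in ectoderm against mesenchyme. Rps12 (0.88), Rplp2 (0.80), Rps9 (0.42), Rpl8 (0.35) and Rpl36 (0.33) had the highest differences. Rpl10 (-0.55), Rpl36a (-0.51), Rps15a (-0.50), Rpl22 (-0.50) and Rpl5 (-0.42) had the lowest. With copies the difference of Rps12 was -0.13 and that of Rpl10 -0.11, while Rplp2 has no copies to add. After the GC trend was subtracted the difference was 0.325 for Rplp2, -0.007 for Rps9, -0.45 for Rpl36 and -0.31 for Rpl8.

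**Figure D5:**
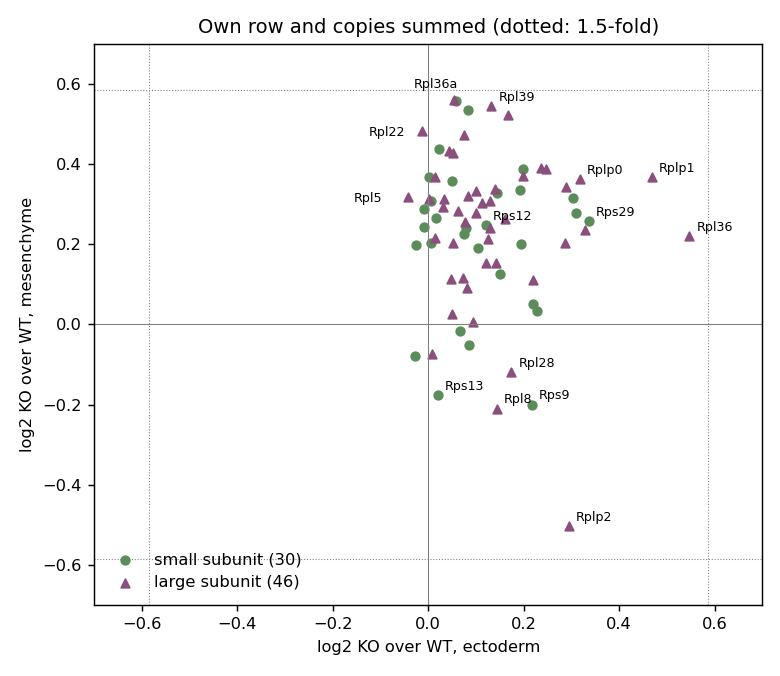
Each point is 1 of the 76 members with its copies added, placed by the log2 ratio of KO over WT in ectoderm (x) and mesenchyme (y); circles are small-subunit and triangles large-subunit genes, and dotted lines mark 1.5-fold. Most points lie above 0 on both axes, Rplp2 is lowest on the y axis (-0.50) and Rpl36 farthest right (0.55).

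Small and large subunits gave similar middles in KO over WT and between the WT layers. In ectoderm the median log2 ratio of KO over WT was 0.10 for 29 small-subunit and 0.12 for 46 large-subunit members, and in mesenchyme 0.24 and 0.30. Between WT layers it was 0.14 and 0.10. Between KO layers the medians had opposite signs, 0.062 for small-subunit and -0.062 for large-subunit members. There 19 of 29 and 17 of 46 members were above 0. In levels the small-subunit genes were higher, with a median of 2410 TPM against 1892 with copies over the mean of the groups. In every group this order held for the medians, for example 2434 and 1825 TPM in WT ectoderm.

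The 22 genes linked to Diamond-Blackfan anaemia had middles near those of all members. Of the 21 with a measured row, 19 were above 0 in KO over WT ectoderm (median 0.13) and 17 in mesenchyme (median 0.26). The same held for 69 and 65 of all 75 members, and for 64.2% and 36.5% of all genes. With the 4 columns quantile-normalized, 41 and 51 of all 75 members were above 0. With copies the medians over all 22 were 0.07 and 0.28. Rps19, the gene most often mutated in that disease, was at 2442.55 and 2556.49 TPM in WT and KO ectoderm and at 2051.83 and 2024.37 in WT and KO mesenchyme. In the deposited TPM Rps19 was near equal between genotypes in each layer. With copies and the GC trend subtracted, its log2 ratio was -0.058 in ectoderm and 0.459 in mesenchyme. Rps26, which contacts the messenger RNA at the exit site, was at 2850.75, 3520.28, 2925.68 and 3643.46 TPM, higher in both KO groups. Rps10 and Rpl35a had log2 ratios of 0.19 and 0.00 in ectoderm and 0.20 and 0.31 in mesenchyme. Those of Rpl15 with copies were 0.05 and 0.20, of Rpl31 with copies 0.03 and 0.31, and of Rps28 with copies 0.22 and 0.05.

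Further genes of that list were Rpl26, Rpl35, Rps20 and Rpl9. Rpl26 was at 3165.65 and 3280.60 TPM in WT and KO ectoderm and at 2545.92 and 3421.29 in WT and KO mesenchyme. Rpl35, 29.6% of whose sum lies in copies, was at 1019.75, 1157.83, 912.33 and 1298.54 TPM. For both WT mesenchyme was the lowest group. Rpl9 was at 2086.76, 2095.51, 1849.33 and 1757.80 TPM, and Rps20 at 1687.36, 1657.55, 1342.97 and 1539.22, which put both mesenchyme groups below both ectoderm groups.

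Rpl5 and Rpl11 form a particle with 5S ribosomal RNA that binds Mdm2 when ribosome assembly is disturbed. With copies Rpl5 was at 2456.08 and 2386.12 TPM in WT and KO ectoderm and at 1938.03 and 2418.67 in WT and KO mesenchyme. Rpl11 with copies was at 2093.68, 2264.41, 1912.34 and 2358.49 TPM. The 2 genes thus shared their lowest group, WT mesenchyme. Of the Rpl11 sum, Gm10288 gave 425.30, 273.27, 223.19 and 206.06 TPM.

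All 4 X-linked members were above 0 in KO over WT mesenchyme, as were 65 of all 75 members. Their own rows had log2 ratios of 0.87 (Rpl10), 0.56 (Rpl36a), 0.52 (Rpl39) and 0.29 (Rps4x), and with copies the range was 0.24 to 0.56. Rps4x, of the small subunit, was at 2763.28 and 2746.01 TPM in WT and KO ectoderm and at 2384.79 and 2910.15 in WT and KO mesenchyme. In ectoderm the list lay between -0.01 and 0.32.

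Among the ribosomal proteins with other names, Rack1, a scaffold on the small subunit, was nearly flat at 1652.41 and 1665.83 TPM in WT and KO ectoderm and at 1670.04 and 1676.83 in WT and KO mesenchyme. Rps3a1 was at 998.67, 792.91, 833.79 and 518.59 TPM, which is lower in KO in both layers and past 1.5-fold in mesenchyme (log2 ratio -0.68). Its copy Rps3a2, which differs at 4 of 792 coding bases, was at 1246.98, 1436.40, 1015.98 and 1787.51 TPM. Summed with copies, Rps3a1 was at 2441.98, 2459.83, 1998.23 and 2557.37 TPM, so that the direction in mesenchyme turned (0.36). Fau, which encodes a ribosomal protein fused to a ubiquitin-like protein, held 80.02% of its sum in copies.

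Paralogs of the members were lower than their counterparts taken with copies. Rpl22l1 was at 572.07 and 586.72 TPM in WT and KO ectoderm and at 435.78 and 545.61 in WT and KO mesenchyme. Its counterpart Rpl22 was at 1154.55, 1144.71, 899.71 and 1257.99 TPM, with the same lowest group. Rps4l was at 62.30, 105.22, 94.09 and 80.02 TPM, and its log2 ratio in ectoderm (0.75) was the only one of 5 paralogs past 1.5-fold. Of all genes, 4.92% were past that mark upward in ectoderm. In mesenchyme the log2 ratio of Rps4l was -0.23. Rpl10l and Rpl3l were at or under 0.12 TPM in every group.

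Lists of other genes of ribosome making had medians nearer to 0 in mesenchyme. Of 36 assembly factors, 1 was past 1.5-fold higher in KO over WT mesenchyme and 4 lower, with a median of 0.05, against 2.33% and 13.4% of all genes. Both shares lie near those of all genes. Nucleolin (Ncl) was the higher one, at 266.58 and 402.13 TPM (log2 ratio 0.59), and Nol6 (-0.999), Bysl (-0.82) and Grwd1 (-0.78) were among the lower ones. Of 19 RNA polymerase I genes, 2 were past 1.5-fold lower (median -0.04), a share also near that of all genes, among them Tcof1, the Treacher Collins gene, at 57.19 and 20.59 TPM (-1.43). Of 78 mitochondrial ribosomal protein genes, 0 were past 1.5-fold higher and 2 lower, with a median of -0.05. In ectoderm these lists had medians of -0.03, 0.05 and 0.06, with 0 genes past 1.5-fold. The ratios of these lists, that of Tcof1 among them, are given without the GC or length trend subtracted.

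The 18 further translation genes known for TOP tracts had a median of 0.02 in ectoderm and 0.06 in mesenchyme. Eef1a1, the elongation factor that brings transfer RNA to the ribosome, was at 9293.62 and 9539.37 TPM in WT and KO ectoderm and at 9554.45 and 12449.43 in WT and KO mesenchyme. Pabpc1 and Eif3f were the 2 genes past 1.5-fold, both lower in KO mesenchyme (-0.65 and -0.92), against 13.4% of all genes. Of 11 regulators of this class, 1 was above 0 in mesenchyme, against 36.5% of all genes, and 4 were past 1.5-fold lower, against 13.4%. Their median was -0.49, and that of all genes -0.12. The 4 genes past the mark were Eif4ebp2 (-1.18), Rptor (-0.91), Larp1 (-0.82) and Myc (-0.82). No GC or length trend was subtracted from the ratios of these lists. Over all genes, 314 of 14118 were past 1.5-fold lower in mesenchyme with the GC trend subtracted, and 1902 of 14233 without that step.

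The start regions were read from RefSeq on GRCm38.p6, where 56 members have an entry with 66 start sites. Within 25 bases on each side of the start, a run of at least 8 pyrimidines on the sense strand was found at 31 of 66 starts (47.0%), against 19.7% of all 32851 starts and 19.1% of those of genes at 10 TPM or more. A purine run of the same length was found at 9.1% of the members' starts and 21.6% of all. A C at the annotated start followed by at least 4 pyrimidines was found at 13 of 66 starts (19.7%) and at 2.5% of all. The letters CTTTC or CTTCC, which overlap with such runs, were in 43.9% of the members' windows and 16.5% of all on the sense strand, and in 24.2% and 17.2% on the opposite strand. TATAAA was in 4.5% (3 of 66 starts) and 0.9%, and in 0.0% and 0.7% on the opposite strand. It was counted anywhere in the window, also after the start, where it lies in Rpl36a printed below. The count therefore does not tell whether a start has a TATA box.

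The windows below run from 20 bases before the annotated start to 20 bases from it, and capitals mark the longest pyrimidine run. They were chosen for members described above with a long run (Rpl27a, Rpl7a, Rplp2, Rps12, Rpl5 and Rps27) and 1 with a short one (Rpl36a). The positions on GRCm38.p6 are chr7:109519175-109519214 for Rpl27a, chr2:26910787-26910826 for Rpl7a, chr7:141447631-141447670 for Rplp2 and chr5:107900508-107900547 for Rpl5, all on the plus strand. They are chr10:23787190-23787229 for Rps12 and chr3:90213629-90213668 for Rps27 on the minus strand, and chrX:134585634-134585673 for Rpl36a on the plus strand.
Rpl27a: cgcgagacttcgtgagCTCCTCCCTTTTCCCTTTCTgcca
Rpl7a: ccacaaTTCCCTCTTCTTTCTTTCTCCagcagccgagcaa
Rplp2: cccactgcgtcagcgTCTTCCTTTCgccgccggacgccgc
Rps12: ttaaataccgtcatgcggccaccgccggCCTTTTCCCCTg
Rpl5: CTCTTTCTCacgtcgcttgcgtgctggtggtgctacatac
Rps27: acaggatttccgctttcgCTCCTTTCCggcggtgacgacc
Rpl36a: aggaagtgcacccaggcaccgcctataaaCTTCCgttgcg

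The run spans the annotated start in Rpl27a, Rpl7a, Rplp2 and Rps27, and lies before it in Rpl5 and after it in Rps12 and Rpl36a. Rps27, listed at 0, has a run of 9 bases at its annotated start.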

How the data were processed

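The authors deposited 1 table of TPM values per gene symbol with 1 column for each group of 4 libraries. Per the submitters' processing notes, STAR 2.5.2a, kallisto 0.43.0 and mm10 were used. The sources used here do not state which program produced the TPM, with which annotation, how it assigned reads shared between copies, or how libraries were combined. Depth is unknown.

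From the deposited TPM, log2 ratios of TPM plus 1 were computed for genes whose mean in the groups compared reached 1 TPM. Tests over libraries had been planned, but the table allows none, so genes were counted at 1.5-fold (KO against WT) and 2-fold (layers, and the difference of KO effects). Of several rows with 1 symbol the highest was kept.

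Copies were found with blastn 2.17.0 (coding sequences of GENCODE M21 on GRCm38, plus strand, identity at least 90% over 80%, pseudogene type or a span up to 2000 bases, E-value 1e-10) or by names ending in -ps or rt. TPM of member and copies were summed. GC and length trends were fitted by lowess (fraction 0.3, genes at 5 TPM or more) with statsmodels 0.14.6.

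The members and lists were chosen with earlier results of these data known. Named were the 5 highest and 5 lowest members of each comparison, the 10 highest by level, the members of 4 short lists, members with most TPM in copies, and up to 4 genes of other lists; further members were named after their values were seen. Certain members are not reported by name.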

Additional observations from a re-analysis of the deposited data

How the results depend on the processing

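Values with 1 column per group have no replicate error, and depth is unknown. Leaving out replicates could not be run. No paired analysis was possible because the table has 1 column per group and carries no replicate number. A median was taken as moved past 0.1 log2, a share past 10% of its value, a count past 1.5 times. The cause of a move was not tested.

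Quantile normalization gave members' medians of 0.014 in KO over WT ectoderm (large subunit 0.01) and 0.082 in mesenchyme (small 0.04, large 0.11), with 2 members higher and 1 lower past 1.5-fold in mesenchyme. Scaling without mitochondrially encoded genes gave 2 higher there and a KO mesenchyme share of 16.66%. With the median of all genes subtracted, the medians were 0.38 in mesenchyme (small 0.36, large 0.42; 9 higher), 0.25 between WT layers (small 0.28, large 0.25) and -0.30 for the difference of KO effects. With the GC trend subtracted they were 0.49 in mesenchyme (small 0.46, large 0.51; 27 higher), 0.28 between WT layers (small 0.31, large 0.23) and -0.43 for the difference (1 lower), and 0 members passed 2-fold between KO layers. Rpl8 and Rps9 turned to 0.30 and 0.15 in mesenchyme, and for the difference Rpl36 and Rpl8 to -0.45 and -0.31. The length trend gave 3 higher in mesenchyme and -0.21 for the difference. GC and then length gave 7 higher, -0.22 for the difference, and -0.11 for both Rpl36 and Rpl8. Of all genes, 590 of 14233 were past 1.5-fold higher in mesenchyme with the median subtracted and 647 of 14118 with the GC trend. With the length trend 594 of 14118 were, and with both trends 395. For the difference, 165 of 14211 genes were past 2-fold lower with the GC trend. Copies added gave 0 higher in mesenchyme, Rps12 at 0.25 there and -0.13 for the difference, and shares of 18.02%, 18.8%, 15.85% and 18.6%. Copies with the GC trend, chosen after seeing the data, gave 0.49 in mesenchyme, 0.31 between WT layers and -0.43 for the difference. For named members 50 values were each counted again under every setting. In that tally 466 moved by less than 0.1 log2, 126 by more and 8 turned. Another pseudocount or filter can hardly move genes at these levels, so the tally does not measure how robust the values are.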

Other observations

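Several copies had other values between genotypes than their member. Rpl28, of the large subunit, was at 1778.38 (WT) and 1792.68 TPM (KO) in mesenchyme, while Rpl28-ps1, identical over 411 coding bases, was at 604.31 and 397.85. Rps6, the target of S6 kinase, was at 1546.74 and 1680.51 TPM, while Rps6-ps4, identical over 747 bases, was at 586.64 and 845.75. The 2 copies of Rplp0 at 1 TPM or more, Gm8730 (12 of 951 coding bases) and Gm9625, had 80.20 and 83.00 TPM in mesenchyme of WT embryos and 24.25 and 24.44 in that of KO embryos. Rplp0 itself was higher in KO mesenchyme. How far reads of the member entered these rows was not tested.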
